A study of Mus musculus with 10 samples.

Results

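Metallothioneins and zinc transporters set how much free zinc a cell holds, and 10 of their genes were followed in pancreatic islets: Mt1, Mt2, Slc30a1, Slc30a2, Slc30a4, Slc30a5, Slc30a8, Slc39a4, Slc39a5 and Slc39a14. They were found by matching these symbols to the Ensembl mouse gene identifiers of the deposited table, which gave 10 of its 52178 genes. The 10 were proposed with the exercise and sedentary levels of these libraries known, so their differences between the groups are given as a description, with no p-value. Gene expression was measured by RNA-seq in 10 libraries of islets from male C57Bl/6 mice, all retired breeders. The exercise group (libraries 6 to 10) had treadmill training over 2 weeks, in sessions of 1 h given 5 times weekly, with the belt at 17 cm/s and tilted by 5 degrees, once 3 days of acclimatization were over. The sedentary group (libraries 1 to 5) did not have this training. Islets of both groups were freed with collagenase, picked by hand and plated in medium with 11 mM glucose. Which animal gave which library is not labelled, and the p-values below rest on differences among libraries that may in part be technical.

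As background, metallothioneins are small cysteine-rich proteins that bind zinc and copper in the cytosol. Transporters of the SLC30 (ZnT) family move zinc out of the cytosol, into vesicles or out of the cell, and those of the SLC39 (ZIP) family move it in. The beta cell packs its insulin with zinc inside secretory granules, and the zinc is released with the hormone. Transcription of metallothionein genes and of Slc30a1 is raised by zinc through the zinc-sensing factor MTF-1, which binds metal response elements in their promoters, and metallothioneins are also induced by glucocorticoids.

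The libraries held 16461369 to 23222704 estimated counts in the exercise group and 15081922 to 20670174 in the sedentary group, and they differed in the tissues they contained. A list of 11 beta cell genes, led by Ins2, took 9.01 to 17.8% of counts in the exercise libraries. It took 16.3 to 23.1% in sedentary 3 to 5, but 0.868% in sedentary 1 and 4.08% in sedentary 2, so markers of islet tissue were scarce in this pair. A list of 18 genes of intestinal absorptive cells (enterocytes), led by Apoa4, took 0.0212 to 0.0955% in the exercise libraries, against 0.415 to 2.69% in the sedentary libraries, where sedentary 1 and 2 were highest at 1.85 and 2.69%. No gene of that list was at 0 in all exercise libraries, and all 18 fell (edgeR, adjusted p under 0.05, against 11.4% of all genes tested). A list of 20 genes of the enzyme-secreting acinar cells of the pancreas was led by Cela2a. It took 15.5 to 25.9% in the exercise libraries, highest in exercise 9 and 6, against 7.27 to 14.6% in the sedentary libraries. Of its genes 10 rose and 0 fell (edgeR, adjusted p under 0.05, against 2.44% and 11.4% of all genes tested). The number that rose depended on the method, with 19 by DESeq2 (beside 1097 of all 15298 genes) and 2 by limma-voom (beside 177). Paneth and goblet cell genes took 0.253 to 0.462% in exercise and 0.221 to 0.580% in sedentary libraries. Of these Zg16, which is also on the acinar list, rose (edgeR, log2 fold change 1.152). Without Zg16, left out after its values were seen, they took 0.00113 to 0.0113% in exercise and 0.0276 to 0.390% in sedentary libraries. Stomach genes, led by Tff2, took 0.0238 to 0.0622% in exercise and 0.0326 to 0.610% in sedentary libraries. Among exercise libraries Tff2 was highest in 6 and 9 (12497 and 8762 counts), as the acinar list was. Pgc had 47560 counts in sedentary 1, 795 in sedentary 2 and at most 33 in an exercise library. Gkn3 was highest in sedentary 2, with 15145 counts. Duct genes took 0.0187 to 0.0300% in exercise and 0.0289 to 0.141% in sedentary libraries. Results are therefore also given without sedentary 1 and 2. In such bulk samples, fewer cells of a type and less RNA per cell cannot be told apart.

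The promoters of the 3 members that were higher in exercise libraries and that are known targets of MTF-1 are shown here, because MTF-1 is known to act through them. Promoter windows, 250 bases before to 50 bases after an annotated start, came from RefSeq on the GRCm38.p6 build and were found for 7 of the 10 members (Slc39a5 has 2 windows); Slc30a8, Slc39a4 and Slc39a14 were not matched. The Mt1 window lies at chr8:94178839-94179138, the Mt2 window at chr8:94172368-94172667 and the Slc30a1 window at chr1:191906531-191906830, all on the plus strand. Capitals mark the core of the metal response element, searched as TGCACNC or TGCGCNC on both strands, and each window runs 5′ to 3′.
Mt1: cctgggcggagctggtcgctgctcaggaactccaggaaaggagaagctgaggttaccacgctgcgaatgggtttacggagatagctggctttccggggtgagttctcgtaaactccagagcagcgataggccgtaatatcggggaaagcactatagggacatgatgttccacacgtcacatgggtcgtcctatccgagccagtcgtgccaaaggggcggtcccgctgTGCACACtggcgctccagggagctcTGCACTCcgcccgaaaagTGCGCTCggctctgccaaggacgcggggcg
Mt2: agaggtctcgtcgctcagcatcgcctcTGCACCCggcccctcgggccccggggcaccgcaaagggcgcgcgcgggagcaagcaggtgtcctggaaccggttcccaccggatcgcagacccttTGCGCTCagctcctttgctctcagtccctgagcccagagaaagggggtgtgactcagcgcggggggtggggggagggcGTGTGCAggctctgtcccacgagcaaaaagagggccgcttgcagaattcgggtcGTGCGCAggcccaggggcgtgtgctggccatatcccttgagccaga
Slc30a1: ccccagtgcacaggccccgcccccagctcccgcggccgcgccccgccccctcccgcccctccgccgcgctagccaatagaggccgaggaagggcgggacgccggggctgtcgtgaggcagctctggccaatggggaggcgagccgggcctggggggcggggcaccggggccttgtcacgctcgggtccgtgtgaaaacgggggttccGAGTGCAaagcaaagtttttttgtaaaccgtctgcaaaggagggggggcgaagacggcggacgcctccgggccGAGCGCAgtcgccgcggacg

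The Mt2 window held 4 copies of the metal response element core, the Mt1 window 3 and the Slc30a1 window 2. In Mt1 they began 23 bases before the annotated start site and at bases 3 and 21 counted from it. Whether transcription in islets begins at this annotated site was not tested, and windows at other Mt1 starts were not searched. Among 32544 promoter windows of the same length, 25.9% held at least 1 copy, 6.19% at least 2, 1.32% at least 3 and 0.298% at least 4. Each of the other 4 members with a window held it too, with 3 copies in Slc30a4, 2 in Slc30a2, 1 in Slc30a5 and 1 in the first of the 2 windows of Slc39a5, so the element was not limited to genes that were higher in exercise libraries. The G and C content of the 8 member windows was 52 to 81.7%. The antioxidant response element core, searched as TGACNNNGC on both strands, matched once in Mt2, Slc30a1 and Slc30a5 and 2 times in the second Slc39a5 window, against 12.4% of all windows with a match. The full glucocorticoid response element (AGAACA, 3 bases of any kind, TGTTCT) matched in none of the 8 member windows and in 0.00922% of all windows. With 3 matches among 32544 windows, its absence from 8 windows says nothing about these genes. Partial matches and bases outside the windows were not searched. A match describes the letters of a window and does not show binding.

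**Figure D1:**
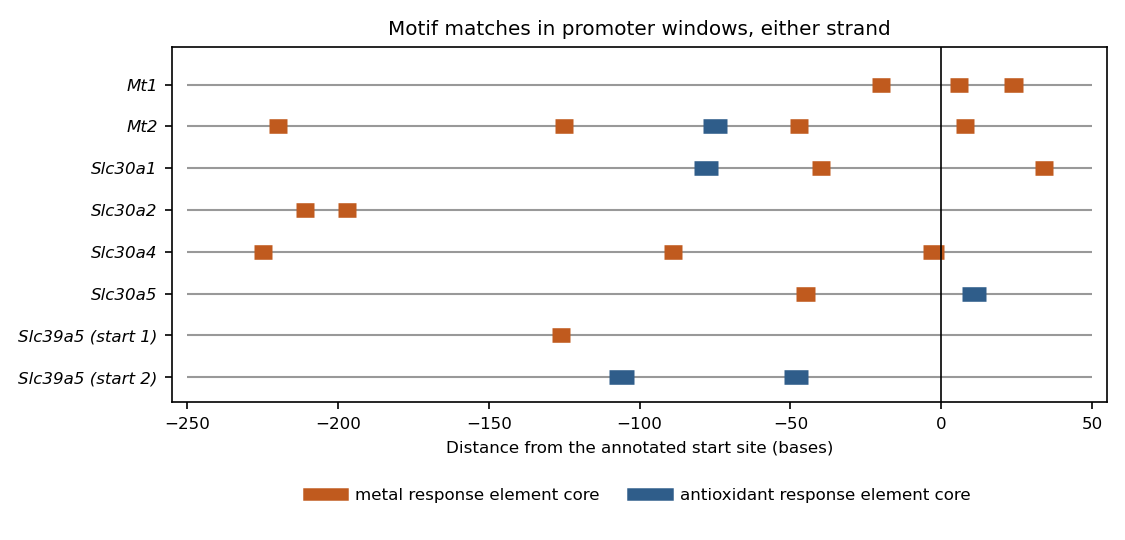
Positions of motif matches in the promoter windows of 7 members, by distance in bases from the annotated start site, with orange for the metal response element core and blue for the antioxidant response element core. Mt2 has 4 orange marks and Mt1 has 3 near the start site, and Slc30a4 also has 3.

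The metallothionein genes showed the largest excess in exercise libraries among the 10 members. Mt1 (ENSMUSG00000031765) had 893, 408, 381, 779 and 388 counts per 1000000 counts of scaled library size (CPM) in exercise 6, 7, 8, 9 and 10, against 48.3, 105, 145, 112 and 96.6 CPM in sedentary 1 to 5. The lowest exercise library lay above the highest sedentary library, and exercise 6 and 9 stood above the other exercise libraries. The means were 570 ± 247 CPM in exercise and 101 ± 34.8 CPM in sedentary libraries (SD, n = 5 each), a 5.62-fold ratio. The log2 fold change was 2.49 ± 0.36 (SE) with all libraries and 2.30 ± 0.35 without sedentary 1 and 2.

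Mt2 (ENSMUSG00000031762), the second of the widely expressed metallothioneins and a neighbour of Mt1 on chromosome 8, followed the same course. It had 477, 246, 232, 506 and 246 CPM in exercise 6 to 10, against 21.8, 49.9, 86.9, 62.8 and 51.8 CPM in sedentary 1 to 5. Again no value overlapped, exercise 6 and 9 were highest and sedentary 1 was lowest. The means were 342 ± 138 CPM in exercise and 54.6 ± 23.5 CPM in sedentary libraries (SD, n = 5 each), and the log2 fold change was 2.64 ± 0.39 (SE), or 2.37 ± 0.34 without sedentary 1 and 2. Together the pair took 0.0592 to 0.116% of all counts in the exercise libraries, against 0.00743 to 0.0277% in the sedentary libraries. Mt1 gave 1.54 to 1.87 counts for each Mt2 count in exercise libraries and 1.67 to 2.22 in sedentary libraries, so the proportion overlapped between the groups while the sum did not.

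Mt1 and Mt2 share no 31-base word with each other in their main GENCODE M21 transcripts. Of the Mt2 words, 56.1% also occur in Gm45774, a predicted gene with 0 to 11 counts per library, or in Pip5k1a, with 304 to 562 counts. Because exercise 6 and 9 were also highest in acinar transcripts, metallothionein counts were set against the acinar list after the values had been seen. Mt1 had 3.50, 2.24, 2.24, 2.01 and 2.65 counts per 1000 acinar counts in exercise 6 to 10, against 0.350, 1.58, 1.496, 1.04 and 1.35 in sedentary 1 to 5. Mt2 had 1.31 to 1.87 in exercise and 0.158 to 0.898 in sedentary libraries on the same scale. The groups did not overlap on this scale for either gene, and the part of acinar content in the metallothionein difference was not tested.

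**Figure D2:**
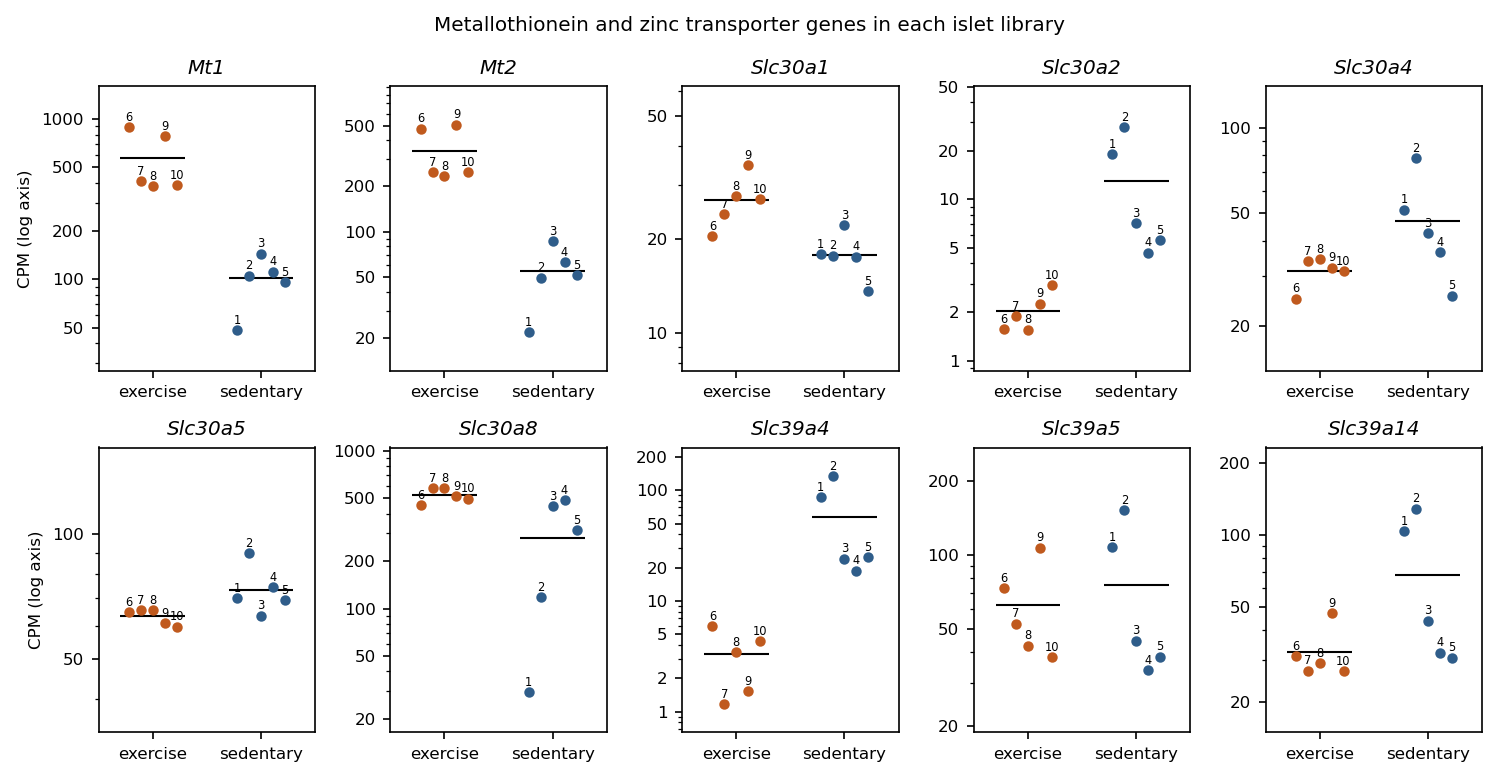
CPM of the 10 genes in each library, on a log axis, with numbered points for libraries 6 to 10 of the exercise group and 1 to 5 of the sedentary group and a black line at the arithmetic mean. Mt1 and Mt2 lie higher in every exercise library, Slc30a2 and Slc39a4 lie lower, and sedentary 1 and 2 stand apart from sedentary 3 to 5 in Slc30a8, Slc39a4 and Slc39a14.

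Slc30a1 encodes ZnT1, the exporter that carries zinc out of the cell across the plasma membrane. It had 20.5, 24.2, 27.6, 34.6 and 26.9 CPM in exercise 6 to 10, against 18.0, 17.7, 22.2, 17.6 and 13.6 CPM in sedentary 1 to 5. Only exercise 6 fell within the sedentary range, below sedentary 3. The log2 fold change was 0.59 ± 0.17 (SE) with all libraries and 0.61 ± 0.20 without sedentary 1 and 2, much smaller than that of the metallothioneins. Of its 31-base words 8.42% are shared with the transcript 1700034H15Rik, which held 4 to 23 counts.

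Slc30a8 encodes ZnT8, the transporter that loads zinc into insulin granules, and it was lowest in sedentary 1 and 2, the libraries with the smallest beta cell share. It had 452, 582, 577, 514 and 497 CPM in exercise 6 to 10, against 29.5, 118, 445, 486 and 313 CPM in sedentary 1 to 5. The exercise libraries lay close together, with a coefficient of variation of 10.5%, against 71.7% in the sedentary libraries, where sedentary 1 and 2 were far below the rest. The log2 fold change was 0.91 ± 0.58 (SE) with all libraries and 0.36 ± 0.16 without sedentary 1 and 2, and the groups overlapped in each case. Per 1000 counts of the beta cell list, Slc30a8 had 2.46, 3.05, 3.14, 3.81 and 3.26 counts in exercise 6 to 10, against 3.604, 3.15, 3.26, 2.71 and 1.61 in sedentary 1 to 5. On that scale sedentary 1, with 0.868% beta cell counts, was within the exercise range, and sedentary 5 was lowest.

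Slc39a4 encodes ZIP4, the transporter by which enterocytes take up zinc from the gut, and it had the largest deficit of the 10 members in exercise libraries. It had 5.92, 1.17, 3.45, 1.55 and 4.35 CPM in exercise 6 to 10, against 86.3, 135, 24.1, 18.7 and 24.7 CPM in sedentary 1 to 5. The exercise values rested on 18 to 106 counts per library, and none reached the sedentary range. The log2 fold change was -4.12 ± 0.71 (SE) with all libraries and -2.73 ± 0.40 without sedentary 1 and 2. Per 1000 counts of the enterocyte list, Slc39a4 had 6.29, 3.15, 4.57, 4.87 and 4.81 counts in exercise 6 to 10, against 4.94, 5.44, 4.84, 5.06 and 5.17 in sedentary 1 to 5. Its proportion to the enterocyte list lay between 3.15 and 6.29 in all 10 libraries with the groups overlapping, while its CPM spanned 1.17 to 135.

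Slc30a2 encodes ZnT2, which moves zinc into vesicles in secretory cells. It had 1.56, 1.89, 1.55, 2.25 and 2.93 CPM in exercise 6 to 10, against 19.1, 28.0, 7.15, 4.66 and 5.58 CPM in sedentary 1 to 5. The groups did not overlap, with or without sedentary 1 and 2, and the exercise values rested on 27 to 60 counts. The log2 fold change was -2.66 ± 0.53 (SE), and -1.48 ± 0.25 without sedentary 1 and 2. Per 1000 enterocyte counts it lay between 1.09 and 1.44 in all sedentary libraries and between 1.66 and 7.11 in the exercise libraries, which held few enterocyte counts. Its proportion to that list was thus nearly constant in sedentary libraries and higher in every exercise library. Per 1000 acinar counts Slc30a2 went the other way, with 0.00581 to 0.0200 in exercise and 0.0435 to 0.418 in sedentary libraries.

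**Figure D3:**
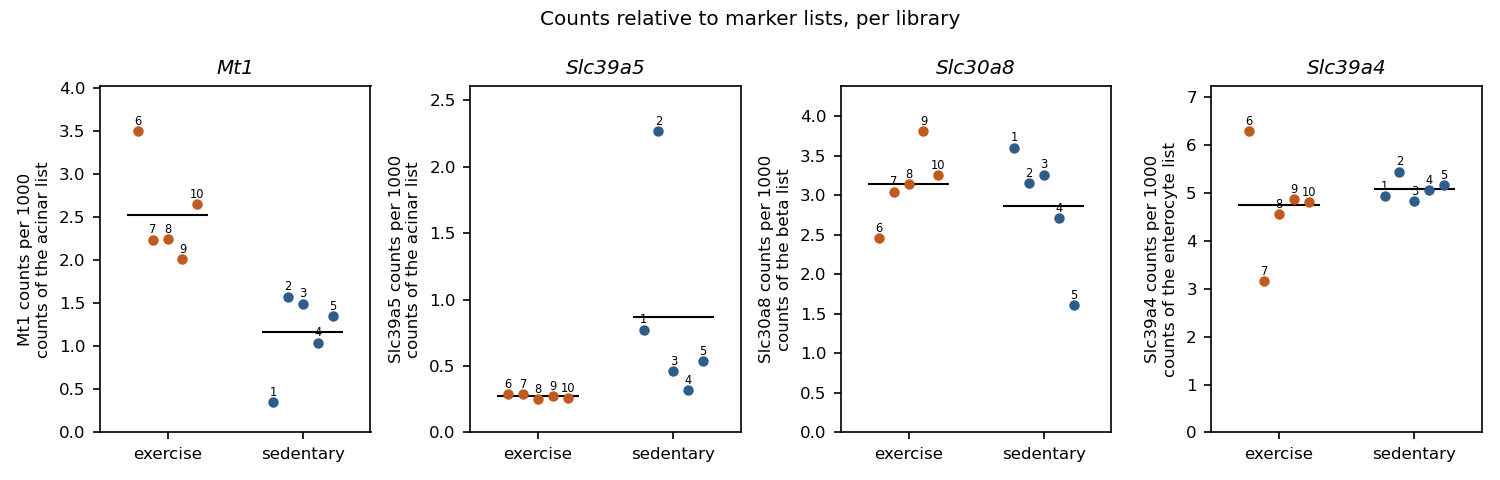
Counts of Mt1 and Slc39a5 per 1000 counts of the acinar list, of Slc30a8 per 1000 counts of the beta cell list and of Slc39a4 per 1000 counts of the enterocyte list, with numbered points for each library and a line at the group mean. Mt1 is higher in every exercise library (2.01 to 3.50, against 0.350 to 1.58), Slc39a5 is nearly constant in exercise libraries (0.251 to 0.287), and Slc39a4 overlaps between the groups (3.15 to 6.29, against 4.84 to 5.44).

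Slc39a5 encodes ZIP5, a zinc importer of the basolateral membrane of enterocytes and of acinar cells, and its groups overlapped. It had 73.3, 52.3, 42.6, 107 and 38.1 CPM in exercise 6 to 10, against 107, 152, 44.6, 33.9 and 38.4 CPM in sedentary 1 to 5. High values stood in exercise 9 and 6, which were rich in acinar transcripts, and in sedentary 1 and 2, which were rich in enterocyte transcripts. Per 1000 acinar counts, Slc39a5 had 0.287, 0.287, 0.251, 0.276 and 0.261 counts in exercise 6 to 10, a range of 0.251 to 0.287, against 0.775, 2.27, 0.462, 0.316 and 0.538 in sedentary 1 to 5. Per 1000 enterocyte counts, Slc39a5 had 42.3 to 337 counts in exercise and 6.12 to 9.17 in sedentary libraries. The direction of the Slc39a5 difference in CPM turned with the libraries used. Its log2 fold change was -0.26 ± 0.46 (SE) for all libraries, 0.16 without sedentary 2 and 0.70 ± 0.31 without sedentary 1 and 2.

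Slc39a14 encodes ZIP14, which carries zinc, iron and manganese into cells. It had 31.2, 27.1, 29.1, 47.1 and 27.0 CPM in exercise 6 to 10, against 103, 128, 43.9, 32.3 and 30.7 CPM in sedentary 1 to 5. Apart from exercise 9, the exercise libraries lay near sedentary 4 and 5, and the high values were those of sedentary 1 and 2. The log2 fold change of -1.07 ± 0.42 (SE) became -0.12 ± 0.20 without sedentary 1 and 2.

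Slc30a4 encodes ZnT4, a transporter of endosomal and secretory vesicles, and spanned 24.9 to 34.3 CPM in exercise and 25.6 to 78.2 CPM in sedentary libraries. Its highest values, 51.5 and 78.2 CPM, were those of sedentary 1 and 2, and its log2 fold change of -0.58 ± 0.26 (SE) became -0.13 ± 0.17 without them. Slc30a5 encodes ZnT5, which supplies zinc to enzymes in the early secretory pathway. It was the steadiest member, with 63.3 ± 2.71 CPM in exercise and 73.3 ± 9.95 CPM in sedentary libraries (SD, n = 5 each) and a log2 fold change of -0.21 ± 0.12 (SE).

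Levels of different genes were set side by side per kilobase of the main GENCODE M21 transcript, as CPM per kb. In exercise libraries Mt1 averaged 1038 ± 449 and Mt2 668 ± 269 CPM per kb (SD, n = 5), and their ranges overlapped. Slc30a8 followed at 266 ± 28.0 CPM per kb, below the lowest Mt2 value of 454. Slc39a5 (30.9) and Slc30a5 (19.9) overlapped with each other, as did Slc39a14 (6.56), Slc30a4 (5.73) and Slc30a1 (5.10), and Slc39a4 (1.20) and Slc30a2 (0.646) were lowest. In sedentary libraries Mt1 (185 ± 63.3 CPM per kb), Slc30a8 (141 ± 101) and Mt2 (107 ± 46.1) had overlapping ranges. Slc39a4, next to last in exercise libraries, averaged 21.0 ± 18.6 CPM per kb in sedentary libraries.

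All 10 members passed the filter on low counts. With edgeR's quasi-likelihood test over all 15298 genes tested and a Benjamini-Hochberg adjusted p under 0.05, 5 members were called, 3 higher (Mt1, Mt2 and Slc30a1) and 2 lower (Slc30a2 and Slc39a4) in exercise. Of all genes tested 13.9% were called, 2.44% as higher and 11.4% as lower. Groups did not overlap for 4 members (Mt1 and Mt2 above, Slc30a2 and Slc39a4 below), against 17.6% of all genes, 6.24% above and 11.4% below. Without sedentary 1 and 2 the same 4 did not overlap (21.0% of all genes, 8.43% above and 12.6% below), and these 4 were called, beside 12.8% of 15692 genes tested, 4.10% as higher and 8.68% as lower. The members' counts support nothing, since the members were picked with this contrast in view. The calls of Mt1, Mt2 and Slc39a4 were made in all 18 alternatives, and that of Slc30a2 in 17, being lost with limma-voom. The call of Slc30a1 was lost without exercise 7, 8, 9 or 10, without sedentary 1, 2, 4 or 5, and without sedentary 1 and 2 together, and also with limma-voom, with no filter on low counts and with library totals alone, while Slc39a14 was called as lower without sedentary 4, with a log2 fold change of -1.24.

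The remaining genes of both transporter families, with Mt3, Mt4 and Mtf1, were listed by family name. Of these 19 genes, 15 could be tested, 1 fell and 0 rose in exercise (edgeR, against 11.4% and 2.44% of all genes). At an unadjusted p under 0.05, 5 were lower and 2 higher, and the share of all genes at that threshold is not given. DESeq2 and limma-voom each called 1 as lower and 0 as higher. Over all 15298 genes, DESeq2 called 2642 as lower and 1097 as higher, and limma-voom 339 and 177. The same all-gene counts stand beside the lists further below. Their median log2 fold change was 0.10, beside -0.00072 over all genes. The other 14 did not pass the test.

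The gene that fell was Slc30a10 (ENSMUSG00000026614), encoding a transporter that exports manganese. It had 3.18, 0.716, 3.11, 1.09 and 2.10 CPM in exercise 6 to 10, against 80.8, 88.6, 23.7, 12.4 and 15.7 CPM in sedentary 1 to 5. Set against each other, the groups differed by -4.42 ± 0.71 on the log2 scale (SE; adjusted p = 0.00900 by edgeR, lower in 5 of 5 exercise libraries than in any sedentary library), and -3.04 ± 0.40 without sedentary 1 and 2 (edgeR adjusted p = 0.00160). Over 18 alternatives its adjusted p lay between 1.04e-09 and 0.0493. Per 1000 enterocyte counts Slc30a10 had 1.93 to 4.11 counts in exercise and 3.29 to 4.76 in sedentary libraries, a proportion that overlapped between the groups as that of Slc39a4 did.

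The 5 genes of next smallest p did not pass. Slc39a11 had 17.1 ± 4.05 CPM in exercise and 31.02 ± 16.8 CPM in sedentary libraries (edgeR adjusted p = 0.111), and Slc39a8, encoding the manganese and zinc importer ZIP8, 1.94 ± 0.573 CPM in exercise and 3.597 ± 2.17 CPM in sedentary libraries (edgeR adjusted p = 0.137). Slc30a6, encoding ZnT6, the partner of ZnT5, had 9.29 ± 1.11 CPM in exercise and 13.1 ± 4.26 CPM in sedentary libraries (edgeR adjusted p = 0.135). Slc39a3 had 35.8 ± 0.824 CPM in exercise and 26.1 ± 6.95 CPM in sedentary libraries (edgeR adjusted p = 0.122), and Slc30a9 57.1 ± 3.57 CPM in exercise and 46.3 ± 7.03 CPM in sedentary libraries (edgeR adjusted p = 0.130). Mtf1, the gene of the zinc sensor itself, had 24.5 ± 0.642 CPM in exercise and 22.9 ± 4.10 CPM in sedentary libraries, a difference of 0.10 ± 0.14 on the log2 scale (SE; adjusted p = 0.621 by edgeR). Mt3, the metallothionein of the nervous system, was low, with 0.910 ± 0.216 CPM in exercise and 1.13 ± 0.691 CPM in sedentary libraries (edgeR adjusted p = 0.591). Mt4, a metallothionein of stratified epithelium, had 0 counts in all 10 libraries, which allows a level of up to 0.130 to 0.195 CPM per library (3 counts, counting error only). Slc30a3, Slc39a2 and Slc39a12 were too low to test.

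**Figure D4:**
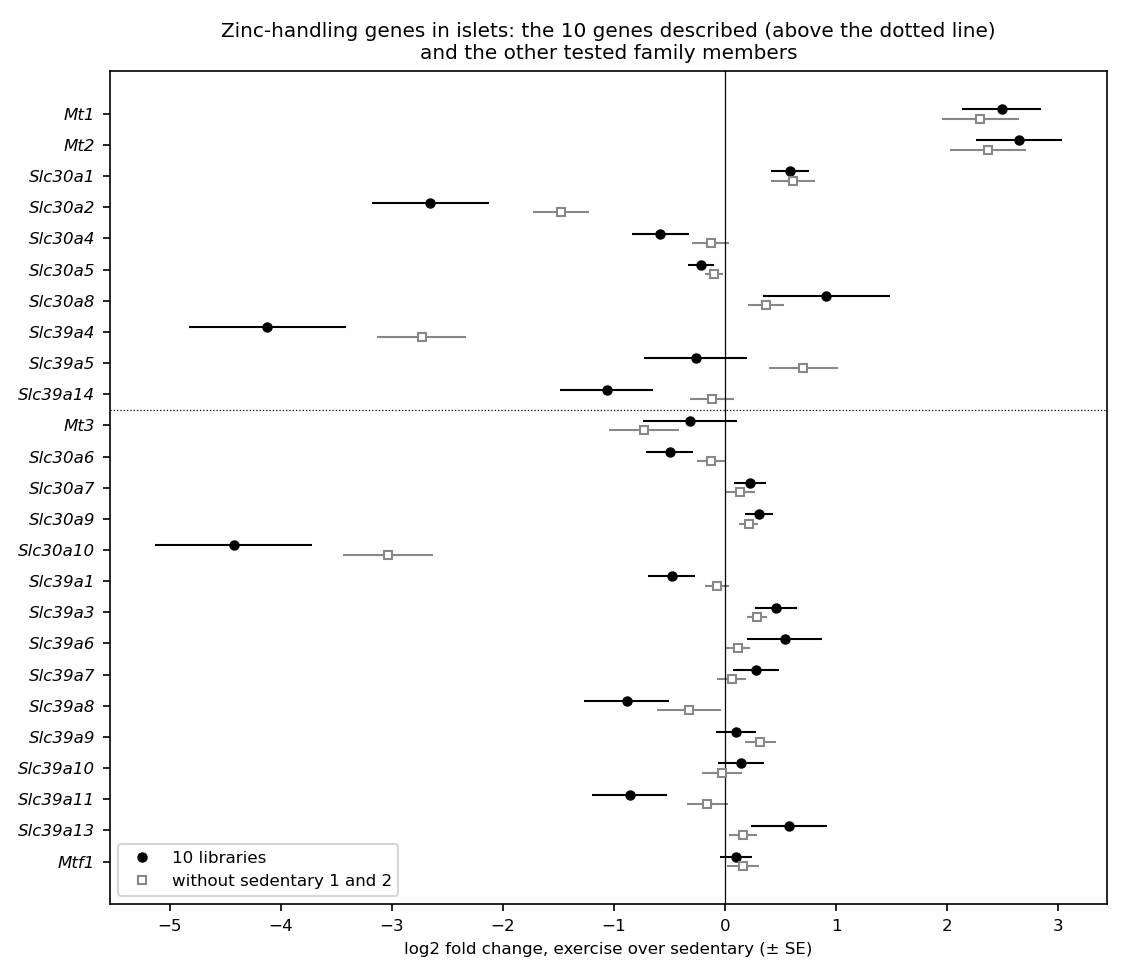
Log2 fold change of exercise over sedentary libraries, with SE bars, for the 10 genes described and the 15 other tested genes of the zinc families, with filled circles for all 10 libraries and open squares for the fit without sedentary 1 and 2. Mt1, Mt2 and Slc30a1 differ little between the fits, and the negative values of Slc30a2, Slc39a4 and Slc30a10 are smaller without sedentary 1 and 2. Slc39a5 changes sign, as does Slc39a10 (0.146 with all libraries, -0.0246 without sedentary 1 and 2).

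Lists of neighbouring biology were read in the same way. Of 19 tested genes of iron and copper handling, 9 fell and 0 rose (edgeR, against 11.4% and 2.44% of all genes, with 11 lower and 0 higher at an unadjusted p under 0.05, 11 lower and 0 higher by DESeq2, and 3 lower and 0 higher by limma-voom), with a median log2 fold change of -1.07. The 4 of smallest p were Heph, the ferroxidase of enterocyte iron export (-4.11), Atp7b, a copper-exporting ATPase (-3.64), Fth1, ferritin heavy chain (-2.50), and Cybrd1, the duodenal ferric reductase (-2.79). Without sedentary 1 and 2, 8 fell (against 8.68% of all genes) and Heph was at -2.71. Without exercise 7, 8, 9 or 10 the count was 4, beside 800 to 955 of 15453 to 15578 genes tested. The enterocyte list moved with these genes, all 18 of its members being called as lower, and its part in these results was not tested.

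Of 19 genes listed for the glucocorticoid response, among them the receptor gene Nr3c1, a list written with earlier results of these data known, 9 rose and 0 fell (edgeR, against 2.44% and 11.4% of all genes, with 13 higher and 1 lower at an unadjusted p under 0.05, 12 higher and 1 lower by DESeq2, and 6 higher and 0 lower by limma-voom), with a median log2 fold change of 0.96. Without sedentary 1 and 2, 8 rose (against 4.10% of all genes). The 4 of smallest p were Zbtb16 (log2 fold change 4.63), Hif3a (2.93), Fam107a (3.37) and Fkbp5 (2.28). Not all of the list moved this way, and its counts support nothing, since earlier results were known when it was written. Sgk1, the 1 lower gene at an unadjusted p under 0.05, was at -1.38 (edgeR adjusted p = 0.0545). Its means were 26.4 CPM in exercise and 68.5 CPM in sedentary libraries. Tsc22d3 was at -0.06 and Pdk4 at 0.18, and neither passed. Fkbp5, a cochaperone of the glucocorticoid receptor, had 222, 167, 173, 289 and 136 CPM in exercise 6 to 10, against 21.8, 21.95, 50.6, 46.7 and 62.0 CPM in sedentary 1 to 5. As with Mt1 and Mt2, exercise 6 and 9 held the highest values, and a link between Fkbp5 and the metallothioneins was not tested. The acinar list was highest in the same pair of libraries, and its part in these results was not tested.

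How members varied within groups was described by Pearson's r of log2 CPM after the group means had been taken off, over 10 libraries that differ in tissue content, with no test. Mt1 and Mt2 were most like each other (r = 0.98, and 0.98 over 8 libraries without sedentary 1 and 2). Next to Mt1 came Fmo2 (0.91) and Pim3 (0.90), and next to Mt2 came Fbxo31 (0.93) and Arhgef10l (0.92). With Slc30a1, Mt1 had an r of 0.09 and Mt2 of 0.19, and without sedentary 1 and 2 these were 0.16 and 0.34.

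Slc30a8 was most like Nol4, Sez6l and Cplx2 (0.999, 0.998 and 0.998, and 0.97, 0.94 and 0.93 without sedentary 1 and 2). Slc30a2 was most like Samd9l, Mtrex and Slc25a37 (0.99 each, and 0.94, 0.93 and 0.90 without sedentary 1 and 2). Slc39a5 was most like Edc3, Rhbdf2 and Ggt1 (0.99, 0.99 and 0.98, and 0.99, 0.95 and 0.97 without sedentary 1 and 2). Slc39a5 and Slc39a14 had an r of 0.95 with each other, and 0.84 without sedentary 1 and 2. Between Mt2 and Slc39a14 r was -0.28 with all libraries and 0.82 without sedentary 1 and 2, so this relation changed sign with that pair of libraries.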

How the data were processed

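The authors deposited a table of estimated counts per Ensembl gene for 10 libraries. Per the labels' protocols, RNA came from a column kit and stranded mRNA libraries were prepared, and the submitters' processing notes name kallisto and fastp. Neither genome build nor annotation of the counts is stated in any source used. Estimated counts were rounded to whole numbers and tested by edgeR 4.0.16 (quasi-likelihood, run under R 4.3.3), keeping genes that met a minimum count of 10 and a minimum total of 15. TMM factors, which scale library sizes, lay between 0.669 and 1.20. CPM values use these sizes, log2 CPM a prior count of 2, and the Benjamini-Hochberg adjustment covered 15298 genes, with a threshold of 0.05. The fit was tested on simulated data.

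Symbols came from GENCODE M21, with 3 list symbols unmatched. Shares of marker lists are percent of counts and need no scaling. No pair of libraries agreed within sampling noise (smallest chi-square per degree of freedom 8.95 over 45 pairs).

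The members and lists were chosen with earlier results of these data known, and the ratios to marker lists after their values were seen. Besides the members, genes were named by rule: from the rest of the zinc families those past the threshold and the smallest p up to 6, the 4 of smallest p of the iron and copper and of the glucocorticoid lists, and the 3 genes most like Mt1, Mt2, Slc30a2, Slc30a8 and Slc39a5 among genes of at least 10 CPM. Mt3, Mt4, Mtf1, Nr3c1, Sgk1, Tsc22d3, Pdk4, Pgc, Gkn3, Gm45774 and Pip5k1a were named outside it, after their values were seen. Alternatives were RLE, upper-quartile and no scaling factors, other filters, DESeq2 1.42.0, limma-voom (limma 3.58.1), the libraries without sedentary 1 and 2, and each library left out.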

Additional observations from a re-analysis of the deposited data

Results flagged for a closer look

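Over 48 groups of 5 libraries (24 genes in each condition), 4 values stood far from the rest of their group by Dixon's test, where chance gives about 1 in 20. Slc39a14 had 47.1 CPM in exercise 9, where the other exercise libraries had 27.0 to 31.2 CPM, and exercise 9 was also the library with the largest acinar share. Slc39a8 had 2.96 CPM in exercise 9, where the others had 1.62 to 1.78 CPM, and 7.32 CPM in sedentary 2, where the others had 1.91 to 3.33 CPM. Cybrd1 had 6.22 CPM in sedentary 2, where the others had 1.13 to 2.03 CPM, and sedentary 2 held the largest enterocyte share. The part of these shares in the values was not tested.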

How the results depend on the processing

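Mt1 and Mt2 moved by less than the spread between libraries in all 18 alternatives, with log2 fold changes of 2.07 to 2.65 for Mt1 and 2.22 to 2.87 for Mt2. Slc30a8 also stayed within its spread, but that spread was wide because it includes the low values of sedentary 1 and 2. Its log2 fold change ran from 0.365 without sedentary 1 and 2 to 1.504 with limma-voom, so its size was not stable. Without sedentary 1 and 2, log2 fold changes moved to -1.48 for Slc30a2, -0.13 for Slc30a4, -2.73 for Slc39a4, 0.70 for Slc39a5 and -0.12 for Slc39a14. With library totals alone, which shift the median of all genes by about -0.34, they moved to 0.23 for Slc30a1 and -0.55 for Slc30a5, and Slc30a9 changed sign to -0.043. Of the 15 tested zinc family genes outside the 10, 5 were then called, all lower. Over all 15298 genes, 4408 were called as lower and 159 as higher in that setting. Of the 10 members, 7 were called in it, with Slc30a1 lost and Slc30a4, Slc30a5 and Slc39a14 added as lower. The number of genes called was 4567 with library totals alone (96.5% lower, against 82.4%), 3739 with DESeq2 (70.7% lower), 516 with limma-voom (65.7% lower) and 951 to 3610 with 1 library left out. Without sedentary 1 and 2 it was 2006, of which 67.9% were lower. With limma-voom 3 members and 3 iron and copper genes were called. With 1 library left out, 4 to 11 iron and copper genes were called. The cause of these shifts was not tested. No paired analysis was possible because no replicate number occurs in both groups. Members with few counts, such as Slc39a4 and Slc30a2 in exercise libraries, are limited by depth.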
